A study of Mus musculus with 36 samples.

Results

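Genes of the B cell and of the antibody it makes were followed through the epididymal white fat (visWAT) and the liver of the same mice. They are 8 of the 56748 genes in the deposited expression table, and were taken by name: the immunoglobulin chains Ighm and Igkc, the joining chain Jchain, the chaperone Mzb1, the receptor partners Cd79a and Cd79b, the membrane protein Ms4a1 and the transcription factor Pax5. The study asked what deletion of the necroptosis gene Mlkl in fat cells does to mice on an obesogenic diet. All 18 animals were male and of the C57BL/6J strain, 16 weeks old at the start, and were then kept for 16 weeks on normal chow (NCD) or on food rich in fat (HFD). WT mice were littermates that carried loxP-flanked Mlkl alleles and no Cre, and Mlkl Adi-KO mice (KO) carried the same alleles with Adipo-Cre, which acts in mature adipocytes. B cells therefore kept Mlkl by design in both genotypes. Each genotype had 4 mice on NCD and 5 on HFD, and each mouse gave 1 visWAT and 1 liver library, which makes 36 libraries in 8 groups.

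A B cell carries on its surface an antibody whose heavy chain, IgM in a cell that has not switched class, is encoded by a V, a D and a J segment joined in front of the constant gene Ighm. The light chain has the constant gene Igkc or one of the lambda genes. Cd79a and Cd79b pass the signal from that antibody into the cell, Ms4a1 is the CD20 antigen, and Pax5 holds the cell in the B lineage until it becomes a plasma cell. Plasma cells secrete the antibody, use Mzb1 to fold it, and link IgM or IgA into larger forms with Jchain. Fat tissue is known to hold B cells, plasma cells and small lymphoid clusters, and lymph nodes can lie close to fat.

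In GRCm39 coordinates, as the deposited table gives them, Ighm (ENSMUSG00000076617) lies at chr12:113382178-113386350 on the minus strand and Igkc (ENSMUSG00000076609) at chr6:70703419-70703950 on the plus strand. Jchain (ENSMUSG00000067149) lies at chr5:88667668-88675750, minus strand. Cd79a (ENSMUSG00000003379) lies at chr7:24596806-24601622, plus strand, and Cd79b (ENSMUSG00000040592) at chr11:106202167-106205588, minus strand. Ms4a1 (ENSMUSG00000024673) lies at chr19:11227039-11243605, minus strand, and Pax5 (ENSMUSG00000014030) at chr4:44524757-44710487, minus strand. These are the limits of whole genes, and the values below are sums over their exons.

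A pair of antibody V segments held a large share of the V segment reads of fat in some mice. Their germline V exons are therefore printed here as GRCm39 has them, 5′ to 3′ on the strand of the gene. Ighv11-2 lies on the heavy chain locus at chr12:114011861-114012160, minus strand, and the 300 bases shown are the 3′ part of an exon of 307 bases. Igkv14-126 lies on the kappa locus at chr6:67873329-67873626, plus strand, and its exon of 298 bases is whole. The capitals mark the last in-frame cysteine codon, which encodes the conserved cysteine before the third, most variable loop of the antibody. These are reference sequences and not the rearranged sequences of the mice. In mice this heavy and light chain pair is known from natural antibodies against phosphatidylcholine that B-1 cells of the body cavities make.
Ighv11-2: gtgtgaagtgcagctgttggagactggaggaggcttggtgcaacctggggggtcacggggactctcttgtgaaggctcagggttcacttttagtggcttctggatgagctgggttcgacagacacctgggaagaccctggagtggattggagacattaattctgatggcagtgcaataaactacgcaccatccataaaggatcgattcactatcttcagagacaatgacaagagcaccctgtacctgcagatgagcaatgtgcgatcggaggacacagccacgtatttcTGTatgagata
Igkv14-126: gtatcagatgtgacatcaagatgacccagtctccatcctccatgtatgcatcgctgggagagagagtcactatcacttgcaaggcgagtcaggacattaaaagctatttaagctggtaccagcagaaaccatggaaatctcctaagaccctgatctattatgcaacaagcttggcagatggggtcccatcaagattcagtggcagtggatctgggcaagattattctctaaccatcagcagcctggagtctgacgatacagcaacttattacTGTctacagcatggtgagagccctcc

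Reads assigned to genes numbered 20875463 to 30322171 per library. Levels are given in FPKM, fragments scaled to gene length and to library size. In visWAT, Mlkl was at 3.91 to 5.11 FPKM in 3 of the 4 WT NCD mice and at 4.58 to 6.28 in WT HFD, against 1.96 to 2.49 in KO NCD and 2.32 to 2.72 in KO HFD. The library labelled WT NCD 182 was at 2.29, within the KO range. The library of WT NCD 183 held 18.5% of its reads on seminal vesicle genes. The limma fits of members and lists that used these 2 libraries were therefore also run without both mice, an alternative chosen after the data were seen. That left only mice 165 and 180 in WT NCD. The exact permutation tests and the correlations were not rerun in this way. The adipocyte gene Adipoq was at 743 to 1995 FPKM in visWAT, and the summed hepatocyte genes were at 42329 to 66509 FPKM in liver. Values are from bulk tissue, in which a change in the number of B cells and a change in RNA per cell cannot be told apart. Within a tissue each library came from a separate mouse, so p-values measure the spread between mice.

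**Figure D1:**
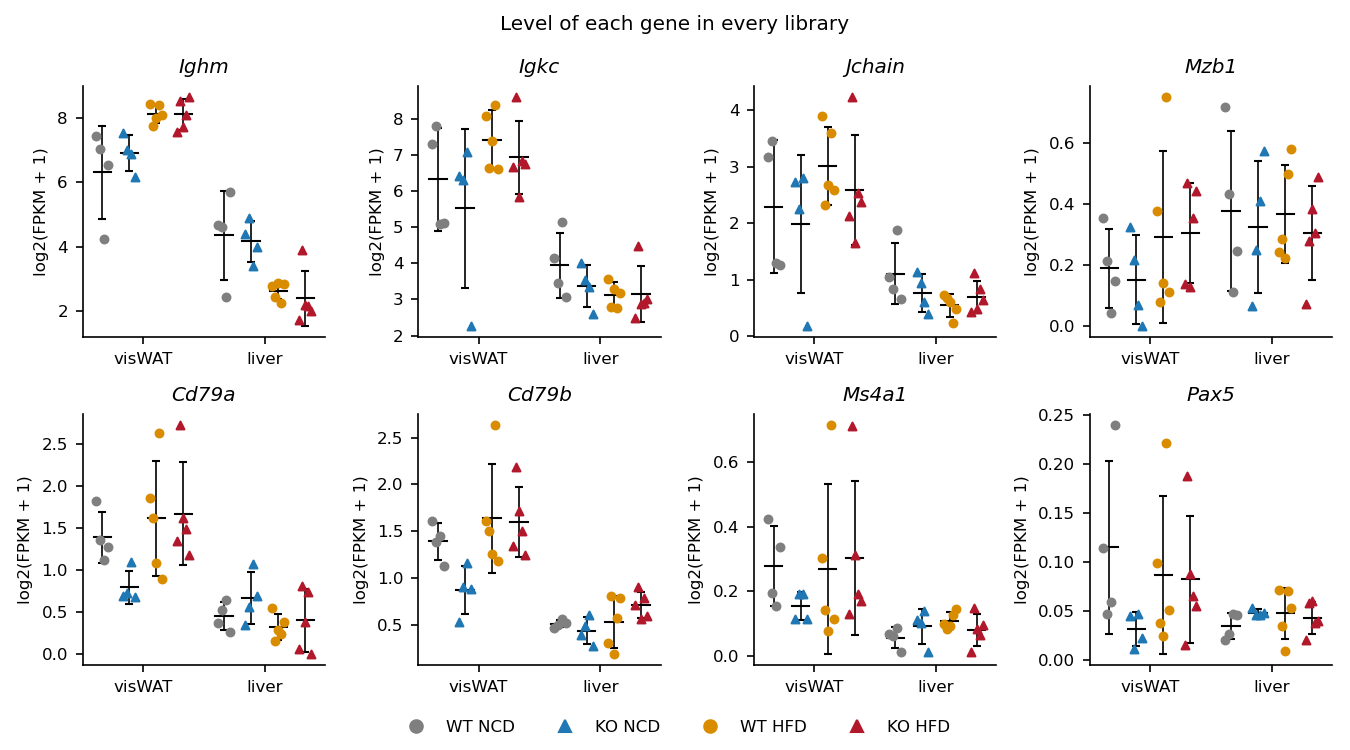
Level of each of the 8 genes in every library as log2(FPKM + 1), with visWAT and liver groups side by side; points are mice, the bar is the group mean and the error bar 1 SD (n = 4 for NCD, n = 5 for HFD). Ighm lay between 17.6 and 399 FPKM in visWAT and between 2.3 and 51.4 FPKM in liver, and Ms4a1, Pax5 and Mzb1 stayed below 1 FPKM throughout.

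Ighm, the constant gene of the IgM heavy chain, had the highest mean of the 8 genes by FPKM over the 18 visWAT libraries. In visWAT of the WT NCD mice 165, 180, 182 and 183 it was at 172, 131, 17.6 and 92.3 FPKM. In the KO NCD mice 166, 179, 197 and 199 it was at 186, 127, 117 and 71.3 FPKM. The WT HFD mice 154, 155, 161, 162 and 164 had 343, 213, 254, 337 and 269.6 FPKM. Every WT HFD mouse thus lay above every WT NCD mouse. In the KO HFD mice 151, 152, 153, 156 and 157 the values were 187, 369, 212, 275 and 399 FPKM, and these too lay above all KO NCD mice, though the nearest values, 187 and 186, almost met.

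Ighm was higher on HFD in visWAT of both genotypes. The mean rose from 103 ± 65.8 (SD, n = 4) to 283 ± 55.9 FPKM (SD, n = 5) in WT, a ratio of 2.74, and from 125 ± 47.2 (SD, n = 4) to 288 ± 93.5 FPKM (SD, n = 5) in KO, a ratio of 2.30. On the log2(FPKM + 1) scale the difference was 1.82 (SE 0.57, adjusted p = 0.0315, limma) in WT and 1.21 (SE 0.31, adjusted p = 0.0114) in KO. The exact permutation test gave p = 0.00794 in WT, the smallest its design allows, and p = 0.0159 in KO. It was run two-sided on 64 pairs of a gene and 2 groups, of which 10 gave p under 0.05. Without mice 182 and 183, and so with only mice 165 and 180 on NCD, the WT difference was 0.89 (SE 0.20, adjusted p = 0.00818, limma). The WT call was lost on leaving out any single one of the 5 WT HFD mice, with adjusted p from 0.0502 to 0.0660 and differences from 1.74 to 1.91. It was the only one of the 5 members tested that passed in WT, and 37.8% of all genes tested passed there, while 33.4% had groups that did not overlap. Rescaling to TPM moved the median gene of this WT comparison from -0.0061 to 0.42 and the calls from 3108 higher and 2239 lower to 3805 higher and 227 lower. On that scale the WT difference of Ighm was 2.31 (adjusted p = 0.00719), against 1.21 in KO, where the median gene stayed at 0.00081.

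In liver Ighm went the other way. The WT NCD mice 165, 180, 182 and 183 had 24.7, 23.2, 4.37 and 51.4 FPKM and the KO NCD mice 20.2, 28.5, 9.41 and 15.0 FPKM. The 5 WT HFD mice had 5.78, 4.41, 6.23, 3.76 and 6.08 FPKM and the KO HFD mice 2.3, 13.8, 3.52, 3.44 and 3.01 FPKM. The diet groups overlapped in WT only through mouse 182 and in KO only through mouse 152, whose 13.8 FPKM lay between the KO NCD values.

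The liver mean of Ighm fell from 25.9 ± 19.3 to 5.25 ± 1.10 FPKM in WT, a log2 difference of -1.73 (SE 0.54, adjusted p = 0.0429, limma; exact permutation p = 0.0397). In KO it fell from 18.3 ± 8.14 to 5.21 ± 4.80 FPKM, a log2 difference of -1.78 (SE 0.44, adjusted p = 0.0176; exact permutation p = 0.0238). Ighm was the single member called in each of these comparisons, of 3 tested in WT and 4 in KO, where 25.3% and 22.2% of all genes tested were called. The KO call held on leaving out each mouse in turn. The WT call held in 1 of 9 such fits, the one without mouse 182, where the log2 difference was -2.37.

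The opposite diet differences of Ighm in both tissues were themselves tested. The diet difference in visWAT, averaged over genotypes, exceeded that in liver by 3.27 on the log2 scale (SE 0.52, adjusted p = 4.42e-06, limma), and 55.5% of all genes tested differed in this way, 4215 upward and 3914 downward (4982 and 1679 on the TPM scale). Without mice 182 and 183 the excess was 2.95 (SE 0.38, adjusted p = 3.43e-07), and with mouse as a block the adjusted p was 1.98e-07. Fat and liver RNA were extracted with different kits, so tissue and kit cannot be told apart in any comparison between tissues, although each kit served both diets.

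Igkc, the constant gene of the kappa light chain, did not follow Ighm closely. In visWAT it was at 156, 222, 33.0 and 34.0 FPKM in the WT NCD mice 165, 180, 182 and 183. The KO NCD mice 166, 179, 197 and 199 had 84.5, 78.2, 135 and 3.83 FPKM. In the WT HFD mice 154, 155, 161, 162 and 164 the values were 272, 99.5, 166, 334 and 97.3 FPKM, and these overlapped the WT NCD range. The KO HFD mice 151, 152, 153, 156 and 157 had 100.2, 386, 56.4, 112 and 107 FPKM, with mouse 152 far above the rest. The diet difference was 1.10 on the log2 scale in WT (SE 0.65, adjusted p = 0.214, limma) and 1.41 in KO (SE 0.95, adjusted p = 0.254), and without mice 182 and 183 it was -0.12 in WT.

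In liver, Igkc ranged from 7.42 to 34.1 FPKM in WT NCD, from 5.02 to 15.0 in KO NCD, from 5.78 to 10.9 in WT HFD and from 4.6 to 21.3 in KO HFD. The highest of all, 34.1 FPKM, belonged to mouse 182, whose liver Ighm was the lowest of the NCD mice. The diet difference was -0.83 in WT (SE 0.38, adjusted p = 0.141, limma) and -0.22 in KO (adjusted p = 0.739). The excess of the visWAT diet difference over that of liver was 1.78 (SE 0.70, adjusted p = 0.0320), and without mice 182 and 183 it was 1.09 (adjusted p = 0.213). It also missed the threshold without WT HFD mouse 162 (adjusted p = 0.0637) or without 182 alone (adjusted p = 0.101).

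**Figure D2:**
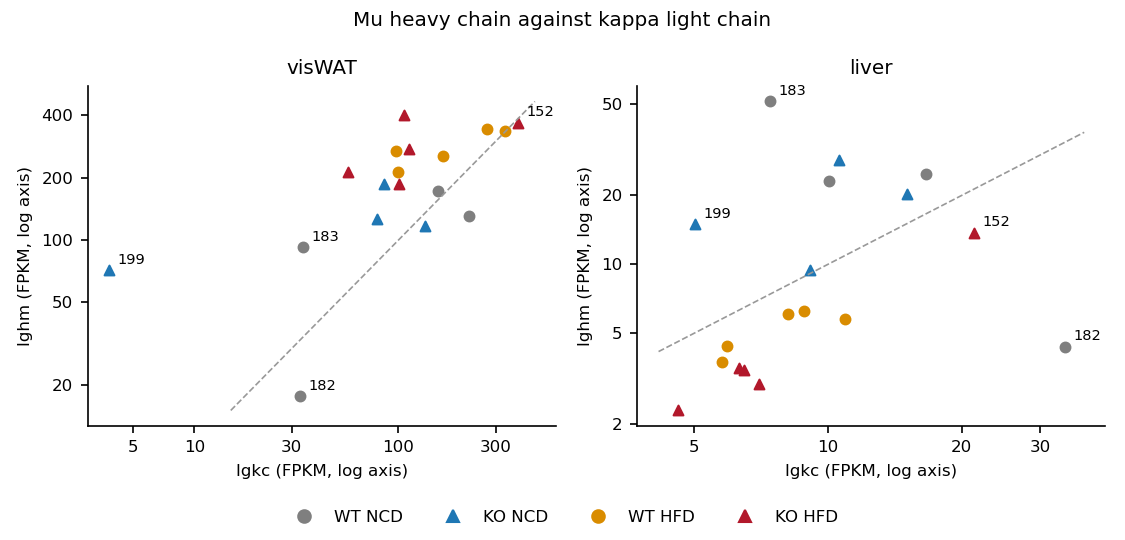
Ighm against Igkc in FPKM, both axes logarithmic, 1 point per library, colours for the groups, with the dashed line where both are equal. Most visWAT libraries lay near or above the line, KO NCD mouse 199 lay at 71.3 FPKM of Ighm with 3.83 of Igkc, and HFD liver libraries lay below it with ratios of 0.430 to 0.750.

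The ratio of heavy to light chain RNA differed in range between tissues and diets. Ighm over Igkc, both in FPKM and so per length, ranged from 0.534 to 18.6 over the visWAT libraries (median 1.74). In liver it ranged from 0.128 to 6.93 on NCD and from 0.430 to 0.750 on HFD. All 10 HFD livers thus had more Igkc than Ighm, while 7 of the 8 NCD livers had more Ighm. These are ratios within a library and were not tested.

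Jchain, which joins IgM and IgA into multimers, followed Igkc. In visWAT it was at 8.01, 10, 1.45 and 1.4 FPKM in the WT NCD mice 165, 180, 182 and 183, and at 5.62, 3.74, 5.95 and 0.137 FPKM in the KO NCD mice 166, 179, 197 and 199. On HFD it was at 13.8, 4.02, 5.39, 11.0 and 5.01 FPKM in the WT mice 154, 155, 161, 162 and 164, and at 3.4, 17.7, 2.15, 4.79 and 4.19 FPKM in the KO mice 151, 152, 153, 156 and 157. The mice lowest in Igkc, 199, 183 and 182, were also the lowest in Jchain, and mouse 152 was the highest in both. Pearson's r between Igkc and Jchain over the 18 libraries of a tissue was 0.956 in visWAT and 0.914 in liver on the log2(FPKM + 1) scale, against 0.641 and 0.292 between Ighm and Igkc. These correlations are descriptions over libraries that also share diet and genotype groups.

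Jchain did not pass the test for diet in either tissue. The log2 difference was 0.72 in WT visWAT (SE 0.54, adjusted p = 0.327, limma), 0.60 in KO visWAT (SE 0.64, adjusted p = 0.475), -0.56 in WT liver (SE 0.23, adjusted p = 0.106) and -0.07 in KO liver (adjusted p = 0.832). In WT visWAT it was -0.30 without mice 182 and 183. The exact permutation p in WT liver was 0.0238, where the mean was 1.28 ± 0.947 FPKM on NCD and 0.470 ± 0.194 FPKM on HFD.

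Cd79a and Cd79b, the signalling partners of the B cell receptor, moved with each other and less with the antibody chains. Cd79a in visWAT was at 2.53, 1.57, 1.17 and 1.41 FPKM in the WT NCD mice 165, 180, 182 and 183, and at 0.607, 0.648, 1.13 and 0.592 FPKM in the KO NCD mice 166, 179, 197 and 199. The KO NCD mice all lay below the WT NCD mice, 1.13 against 1.17 FPKM where the groups came closest. The WT HFD mice 154, 155, 161, 162 and 164 had 2.62, 2.07, 1.12, 5.20 and 0.854 FPKM, on both sides of the WT NCD values. The KO HFD mice 151, 152, 153, 156 and 157 had 1.55, 5.64, 2.07, 1.81 and 1.26 FPKM, all above KO NCD.

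Cd79b in visWAT was at 2.04, 1.62, 1.73 and 1.19 FPKM in WT NCD and at 0.448, 0.864, 1.23 and 0.844 FPKM in KO NCD, in the same order of mice. It was at 2.05, 1.83, 1.39, 5.20 and 1.27 FPKM in WT HFD and at 1.53, 3.54, 2.28, 1.82 and 1.37 FPKM in KO HFD. The mice 162 and 152 stood highest for both genes. Pearson's r between both genes over the 18 visWAT libraries was 0.940, while that between Cd79a and Ighm was 0.457.

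Both receptor genes were higher on HFD in KO visWAT. Cd79a rose from 0.744 ± 0.258 (SD, n = 4) to 2.47 ± 1.80 FPKM (SD, n = 5), a ratio of 3.31 and a log2 difference of 0.88 (SE 0.28, adjusted p = 0.0321, limma). Cd79b rose from 0.847 ± 0.320 to 2.11 ± 0.872 FPKM, a ratio of 2.49 and a log2 difference of 0.73 (SE 0.20, adjusted p = 0.0154). The groups did not overlap for either gene, and the exact permutation test gave p = 0.0159 for each. With Ighm these made 3 of 5 members tested, where 43.7% of all genes tested were called and 38.4% did not overlap. The Cd79b call held on leaving out each mouse in turn. The Cd79a call was lost, at adjusted p from 0.0518 to 0.0755, without KO HFD mouse 153 or without any of the KO NCD mice 166, 179 and 199.

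In WT visWAT the diet difference was 0.23 for Cd79a (SE 0.33, adjusted p = 0.617, limma) and 0.24 for Cd79b (SE 0.27, adjusted p = 0.509). They were 0.029 and 0.14 without mice 182 and 183, and without mouse 162 they became -0.027 and -0.0054. The diet difference was not shown to depend on genotype: for the 5 members tested, the adjusted p of the interaction in visWAT ran from 0.518 to 0.961, and 0% of all genes tested passed it.

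Between genotypes on chow, Cd79a was lower in KO visWAT by a log2 difference of -0.60 (SE 0.17) and Cd79b by -0.52 (SE 0.15), both with an adjusted p of 0.916 by limma over 14063 genes. The exact permutation p was 0.0286 for Cd79a, the smallest that 4 mice against 4 allow, and 0.0571 for Cd79b. In that comparison 0% of genes passed the adjusted threshold, 528 had an unadjusted p under 0.05, edgeR called 0 and DESeq2 called 8. The share of genes whose groups did not overlap was 2.46%. Without mice 182 and 183 the differences were -0.80 and -0.63, with adjusted p above 0.99 for both. Neither receptor gene therefore passed the test between genotypes.

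No member passed the test between KO and WT in any tissue or diet. The adjusted p of the members tested ran from 0.554 to 0.972 in HFD visWAT, was 0.996 for all 3 in NCD liver, and ran from 0.624 to 0.988 in HFD liver. Of all genes tested, 0.0215%, 0.00758% and 0.197% were called there. edgeR and DESeq2 on the recovered read counts also called 0 members in each, and unadjusted p under 0.05 was found for 2 members in NCD visWAT, those given above, and for 0 in the others. The interaction in liver gave adjusted p from 0.940 to 0.997, with 0.0151% of all genes called.

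In liver both receptor genes stayed low. Group means of Cd79a were 0.372 FPKM in WT NCD, 0.612 in KO NCD, 0.251 in WT HFD and 0.352 in KO HFD, and mouse 157 had 0 reads, which allows up to 0.126 FPKM at 3 reads. Cd79b means were 0.424 ± 0.0388, 0.359 ± 0.133, 0.466 ± 0.276 and 0.645 ± 0.161 FPKM in the same order. Cd79b was the only one of them high enough to be tested in liver, in KO, where the diet difference was 0.28 (SE 0.11, adjusted p = 0.0943, limma; exact permutation p = 0.0397). The ranges of the 2 KO liver groups overlapped. The KO NCD mean was below the filter of 0.5 FPKM, so Cd79b entered this fit through the HFD group. That selection favours a rise on HFD.

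Ms4a1, Pax5 and Mzb1 were too low for the fits, which kept genes with a mean of at least 0.5 FPKM. Ms4a1, the CD20 gene, ranged from 0.0561 to 0.639 FPKM in visWAT (14 to 144 reads) and from 0.00912 to 0.109 FPKM in liver (1 to 13 reads). Its highest values, 0.639 and 0.637 FPKM, were again those of mice 162 and 152. Pax5, the B lineage factor, ranged from 0.00735 to 0.181 FPKM in visWAT and from 0.00577 to 0.0505 FPKM in liver, with mice 183, 162 and 152 on top at 0.181, 0.166 and 0.139 FPKM. The lowest group mean of Pax5, 0.0218 FPKM, was that of KO NCD visWAT, below every liver group. Mzb1, the chaperone of antibody-secreting cells, was the only member with its highest group mean in liver. Its counts were 1 to 13 reads per liver library and 0 to 30 per visWAT library, and neighbouring group ranges overlapped. It had its highest group mean, 0.316 ± 0.247 FPKM, in WT NCD liver, and its visWAT values ran from 0 reads in mouse 199, which allows 0.0852 FPKM at 3 reads, to 0.683 FPKM in mouse 162. Among these 3 genes, 1 exact permutation p was under 0.05, that of Ms4a1 between diets in WT liver (p = 0.0238, means 0.0792 on HFD and 0.0409 on NCD), on 1 to 13 reads per liver library.

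The order of the 8 group means showed which steps exceeded the spread. For Ighm, both HFD visWAT groups (288 and 283 FPKM) stood apart from both NCD visWAT groups (125 and 103 FPKM), and both NCD livers (25.9 and 18.3 FPKM) followed with ranges that overlapped WT NCD visWAT. The HFD livers (5.25 and 5.21 FPKM) came last, and their neighbouring ranges, KO NCD and WT HFD liver, did not overlap. For Cd79a the only neighbours in that order with separate ranges were WT NCD and KO NCD visWAT. For Igkc and Jchain the order ran from HFD visWAT over NCD visWAT to liver, and every neighbouring pair overlapped.

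All 5 members tested were higher in visWAT than in liver on both diets. On HFD the log2 difference was 5.61 for Ighm (SE 0.22, adjusted p = 8.58e-16, limma), 4.05 for Igkc (SE 0.32, adjusted p = 1.67e-10), 2.18 for Jchain (SE 0.26, adjusted p = 1.23e-07), 1.29 for Cd79a (SE 0.21, adjusted p = 6.55e-06) and 0.99 for Cd79b (SE 0.16, adjusted p = 6.08e-06). On NCD it was 2.35 for Ighm (SE 0.49, adjusted p = 0.000333) and 2.27 for Igkc (SE 0.62, adjusted p = 0.00325), and 1.21, 0.54 and 0.66 for Jchain, Cd79a and Cd79b with adjusted p of 0.0112, 0.00496 and 2.23e-05. Without mice 182 and 183 the NCD differences were 2.69 for both Ighm and Igkc, 1.60 for Jchain, 0.47 for Cd79a and 0.63 for Cd79b, and all 5 kept the call, with adjusted p up to 0.0360. Of all genes tested, 80.6% on NCD and 87.3% on HFD were called in one direction or the other, 38.5% and 43% as higher in visWAT. Between these tissues the choice of scale moved the median gene from -0.037 to 0.70 on NCD and from -0.010 to 0.94 on HFD when FPKM was rescaled to TPM, and all 5 members were still called higher in visWAT on that scale. The calls over all genes moved with it, from 5589 higher and 6108 lower to 9252 higher and 2550 lower on NCD, and from 6284 higher and 6483 lower to 10689 higher and 2910 lower on HFD.

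The tissue gap of Cd79a also widened on HFD, by 0.75 (SE 0.27, adjusted p = 0.0177, limma), and without mice 182 and 183 this was 0.65 with adjusted p = 0.0794. For Cd79b the same quantity was 0.34 (SE 0.20, adjusted p = 0.156) and for Jchain 0.97 (SE 0.49, adjusted p = 0.0898), and without both mice they were 0.27 and 0.38. With Ighm and Igkc, 3 of 5 members passed this test, a share near the 55.5% of all genes tested that did, and without both mice 1 of 5 did, Ighm.

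The V segments described at the start gave a second readout of the antibody RNA beside the constant genes. Reads on 183 Ighv and 160 Igkv genes were summed for each library, and segments of a family are similar enough that reads may have been shared among them or left out. In visWAT these sums ran from 4 to 1402 reads for Ighv (median 325) and from 12 to 3226 for Igkv (median 722). In liver they ran from 10 to 59 and from 8 to 119 reads, too few to compare the shares of single segments.

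Light chain V and C reads kept a steady ratio, and heavy chain reads did not. Igkv reads per 1000 Igkc reads ranged from 203 to 496 in visWAT (median 408) and from 178 to 746 in liver (median 415). Ighv reads per 1000 Ighm reads ranged from 1.03 to 104 in visWAT (median 28.3) and from 11.1 to 352 in liver (median 134). KO NCD mouse 199 was the extreme in fat, with 4 Ighv reads beside 3897 Ighm reads, 59 Igkc reads and 12 Igkv reads. Ighm RNA in that library thus had almost no V segment or light chain beside it, while the other low library, mouse 182, had 94 Ighv reads beside 900 Ighm reads.

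By diet, the median of Ighv per 1000 Ighm reads in liver was 49.6 on NCD and 172 on HFD, and in visWAT 36.3 on NCD and 24.9 on HFD. The liver medians of the reads themselves were 32 on NCD and 28.5 on HFD for Ighv, but 730.5 and 134.5 for Ighm. The liver ratio thus moved mainly with Ighm. A single segment, Ighv1-56, had the most Ighv reads in 13 of 18 livers. In KO HFD mouse 151, the highest liver ratio, it had 17 of 25 Ighv reads. Where Ighm was higher, V reads per Ighm read were lower in the median, in both tissues. The ranges overlapped in both, 11.1 to 345 against 88.5 to 352 in liver and 1.03 to 104 against 13.4 to 58.6 in visWAT. These ratios share the Ighm count as their denominator and were given no test. The sources used here give neither the strand setting of the counting nor the annotation, so a transcript that overlaps Ighm on the other strand would not be told apart.

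**Figure D3:**
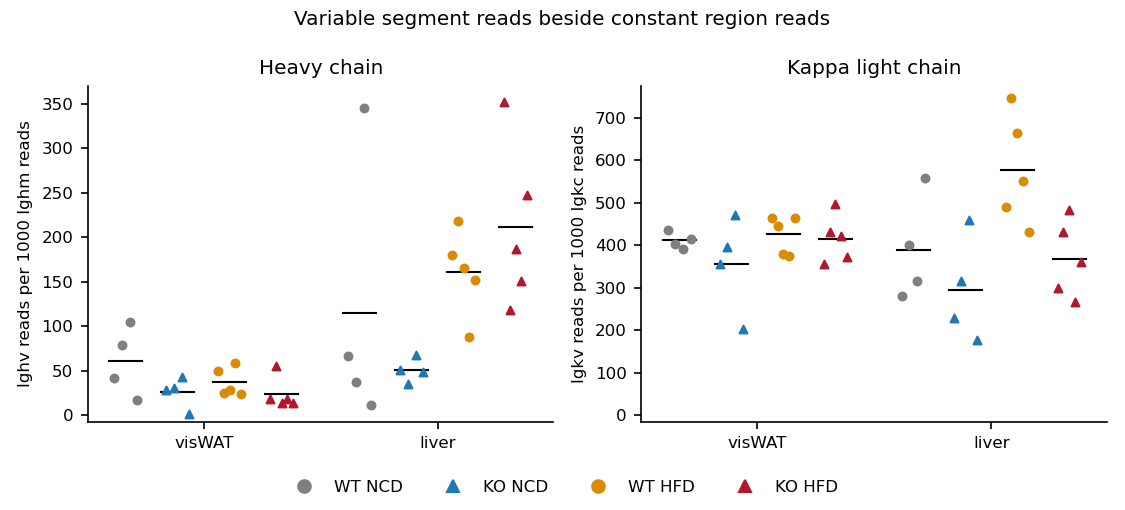
Reads on V segments per 1000 reads on the constant gene in each library, for the heavy chain (Ighv over Ighm) and the kappa chain (Igkv over Igkc), by group; points are mice and the line is the group mean. Kappa ratios lay between 178 and 746 in both tissues, and heavy chain ratios spread from 1.03 in KO NCD visWAT to 352 in KO HFD liver. That highest ratio rests on 25 Ighv and 71 Ighm reads.

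Ighv11-2 and Igkv14-126, the printed segments, were both abundant in some mice and both scarce in others. In WT NCD mouse 165 Ighv11-2 made up 39.2% of Ighv reads (95% Wilson interval 35.0 to 43.6) and Igkv14-126 made up 51.2% of Igkv reads (48.5 to 53.9). In KO HFD mouse 151 the shares were 54.7% (48.0 to 61.2) and 54.6% (50.7 to 58.5). In the other 4 mice in which Igkv14-126 led, its share was the larger of the 2, with intervals apart: 15.8% for Ighv11-2 against 23.2% for Igkv14-126 in mouse 180, 8.84% against 21.4% in 166, 34.6% against 40.1% in 152 and 25.8% against 36.0% in 156. Both were the leading segment of their chain in 5 of 18 visWAT libraries, mice 165, 180, 151, 152 and 156, and Igkv14-126 also led in mouse 166. These mice come from 3 of the 4 visWAT groups, WT NCD, KO HFD and, for the kappa segment only, KO NCD.

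In the other mice the shares were lower but the pair was still present. Each segment had reads in 16 of 18 visWAT libraries, and both were at 0 reads in KO NCD mice 179 and 199, of which 199 had too few V reads to show it. Median shares over the 18 libraries were 9.30% for Ighv11-2 and 11.6% for Igkv14-126. In the 5 WT HFD mice Ighv11-2 ran from 4.6% to 18.3% and Igkv14-126 from 3.48% to 20.1%, and neither led in any of them. In liver the highest count was 1 read for Ighv11-2 and 2 reads for Igkv14-126, so its repertoire could not be compared at this depth. Reads are not independent molecules and many can come from 1 plasma cell, so the intervals cover counting error only.

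**Figure D4:**
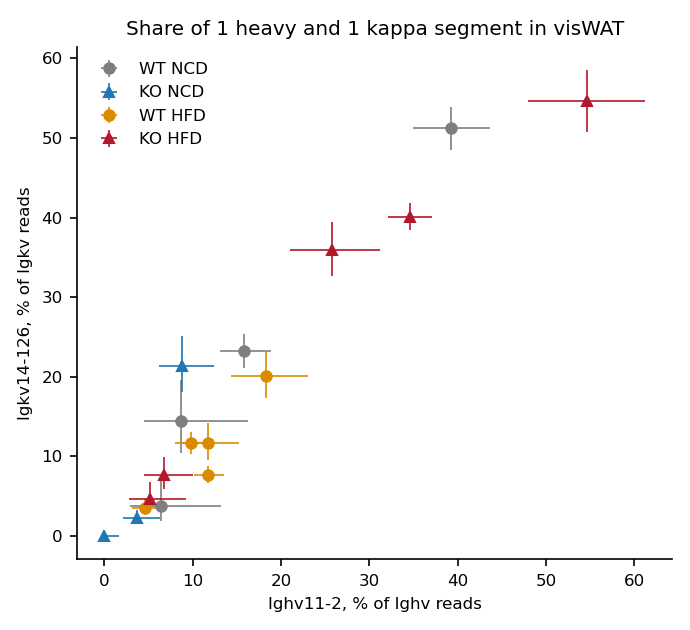
Share of Igkv14-126 among kappa V reads against the share of Ighv11-2 among heavy chain V reads in percent, 1 point per visWAT library with 95% Wilson intervals; KO NCD mouse 199, with 4 heavy chain V reads, is not drawn. The points run from 0% for both in mouse 179 to 54.7% and 54.6% in mouse 151.

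Outside this pair the leading segments differed from mouse to mouse. In all, 12 Ighv and 11 Igkv genes led in at least 1 of the 18 visWAT libraries. Igkv3-4 led in KO NCD mice 179 and 197, with 228 and 446 reads, and Igkv3-2 led in WT HFD mouse 162 and KO HFD mouse 153. In WT HFD mouse 155 a single kappa segment, Igkv1-135, had 423 of 702 Igkv reads. The other pair known from B-1 antibodies against phosphatidylcholine, Ighv12-3 with Igkv4-91, stayed at or below 3.19% and 5.36% of reads.

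The other constant genes were far lower than Ighm in visWAT. Lambda constant genes reached 10.1 FPKM for Iglc1, 12.1 for Iglc2 and 13.4 for Iglc3, the IgG genes 9.09 FPKM at most (Ighg3 in KO NCD mouse 197), Igha 2.78 and Ighd 2.96, and Ighe was at 0 in every library. Ighg1 was at 5.64 FPKM in KO HFD mouse 152. In the diet comparison of visWAT, 0 of 8 constant genes tested passed in WT by limma, with 0 at an unadjusted p under 0.05, 0 by edgeR and 1 by DESeq2, and 1 of 9 passed in KO. That gene was Iglc1, which rose from 0.647 ± 0.653 to 5.33 ± 3.49 FPKM (log2 difference 1.84, SE 0.41, adjusted p = 0.00647, limma). In liver 0 of the 2 tested in each genotype passed by limma, 1 had an unadjusted p under 0.05 in each, and edgeR and DESeq2 called 1 as lower in each.

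Of 27 other B lineage genes, 13 were high enough to be tested in WT visWAT, where 7 were higher and 1 lower on HFD, and 10 in KO visWAT, where again 7 were higher and 1 lower. The median log2 difference was 1.11 in WT and 1.07 in KO, beside -0.0061 and 0.0094 over all genes tested. Of all genes tested, 21.9% were called higher and 15.8% lower in WT, and 23.3% higher and 20.3% lower in KO. The filter used the mean over both diets, so a gene could enter through its HFD level. Of the 27 genes, 7 reached it over the NCD visWAT libraries and 14 over the HFD visWAT libraries. These counts and medians are therefore favoured upward, and the other lists passed the same kind of filter. Cd37, Cd72 and Cd180, which macrophages also express, rose by 2.46, 2.84 and 2.87 in WT (adjusted p of 2.36e-06, 9.07e-06 and 8.75e-07, limma) and by 1.65, 1.86 and 2.04 in KO (adjusted p of 0.00373, 0.0192 and 0.00398). Ebf1, which is also active in the adipocyte lineage, fell, with a log2 difference of -0.83 in WT (adjusted p = 0.00893) and -1.15 in KO (adjusted p = 0.000328). On the TPM scale the WT value of Ebf1 was -0.46 with adjusted p = 0.338. In liver 1 of 7 in WT and 2 of 7 in KO were higher and 0 lower, where 13.2% and 11.9% of all genes were called higher and 12.1% and 10.3% lower.

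Genes of plasma cells gave a mixed picture in visWAT, with 3 of 13 higher and 0 lower in WT and 6 higher and 2 lower of 13 in KO. Of all genes tested there, 21.9% were called higher and 15.8% lower in WT, and 23.3% higher and 20.3% lower in KO. The most abundant of these plasma cell genes in visWAT were Xbp1 and Txndc5, with means of 51.4 and 24.2 FPKM. Sdc1, a surface marker of plasma cells that other cells also carry, rose by 1.65 in WT (adjusted p = 9.06e-06, limma) and 1.30 in KO (adjusted p = 0.00438). The median log2 difference of the plasma cell genes was 0.03 in WT and 0.25 in KO. In liver 1 was higher and 3 lower of 9 in WT, and 1 higher and 0 lower of 9 in KO. Of all genes tested in liver, 13.2% were called higher and 12.1% lower in WT, and 11.9% higher and 10.3% lower in KO. Of 5 B cell precursor genes none reached the filter in visWAT, and 2 of 5 germinal centre genes did, of which 1 rose in each genotype. Of 5 B cell ligand genes tested in visWAT, 3 rose and 0 fell in WT, and 1 rose and 1 fell in KO.

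Genes that bind or carry antibody were higher on HFD in visWAT, 6 of 6 tested in WT and 5 of 7 in KO, with median log2 differences of 2.45 and 1.35. Fcer1g, the shared signalling chain of Fc receptors, rose by 2.79 in WT and 1.88 in KO (adjusted p of 2.35e-06 and 0.00311, limma), and Fcgr3, a receptor for IgG, by 2.90 and 1.80 (adjusted p of 6.81e-07 and 0.00249). Macrophage genes moved in the same comparisons, 10 of 11 higher in WT and 9 of 11 in KO, with the summed level of the 12 genes at 347 to 706 FPKM on NCD and 1146 to 3539 FPKM on HFD. Pan-leukocyte genes were higher in 4 of 5 and 5 of 5. Their summed level was 29.2 to 609 FPKM in WT NCD, with a median of 33.2, and 31.5 to 44.6 FPKM in KO NCD. On HFD it was 174 to 279 FPKM in WT and 86.6 to 263 FPKM in KO, so the highest WT NCD library lay above all HFD libraries. The leukocyte gene Ptprc was at 0.748 to 1.07 FPKM in NCD visWAT, 4.24 to 5.52 in WT HFD and 1.57 to 5.02 in KO HFD. Without mice 182 and 183 the counts for WT visWAT, higher and lower on HFD, were 8 and 1 of 14 B lineage genes, 6 and 1 of 13 plasma cell genes, 0 and 1 of 8 constant genes, 5 and 0 of 6 antibody receptor genes, 10 and 0 of 11 macrophage genes and 5 and 0 of 5 pan-leukocyte genes. The part of these cells in the visWAT rise of Ighm, Cd79a and Cd79b was not tested.

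Genes of lymphoid organ stroma were examined because a lymph node in the dissected fat would bring B cells with it. The summed level of 6 such genes in visWAT was 32.7 to 86.5 FPKM in WT NCD, 22.6 to 108 in KO NCD, 6.93 to 43.3 in WT HFD and 11.1 to 108 in KO HFD. Most of it was Ccl21a, the chemokine of lymph node stroma and lymphatic vessels, at 2.93 to 101 FPKM. Next in mean level over the visWAT libraries were Cxcl13 at 3.09 FPKM and Chst4 at 1.67 FPKM. Glycam1, which marks the high endothelial vessels of lymph nodes, was at or below 0.0648 FPKM in every visWAT library, and Madcam1 at or below 0.231 FPKM. In WT 2 of 4 stroma genes tested fell on HFD and 0 rose (1 and 1 on the TPM scale). The log2 difference was -1.84 for Ccl21a (adjusted p = 0.0464, limma) and -1.13 for Ccl19 (adjusted p = 0.0123), and Ccl21a missed the threshold on the TPM scale (adjusted p = 0.101) and by edgeR (adjusted p = 0.0594). Without mice 182 and 183 the WT values were -2.26 for Ccl21a (adjusted p = 0.0487) and -1.50 for Ccl19 (adjusted p = 0.00302). In KO 0 of 4 passed by limma, 0 by edgeR and 0 by DESeq2, and 0 had an unadjusted p under 0.05.

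Of the 2 mice highest in Cd79a, 1 was also the highest of its group in stroma genes. KO HFD mouse 152 had Cd79a at 5.64 FPKM with a stroma sum of 21.9, the median of its group, while the highest sum in that group, 108, was that of mouse 156 with Cd79a at 1.81 FPKM. WT HFD mouse 162, with Cd79a at 5.20 FPKM, had the highest stroma sum of its group, 43.3, and the highest T cell sum, 20.1 FPKM. The T cell genes, 21 in number, summed to 10.8 to 18.3 FPKM in WT NCD, 6.93 to 11.5 in KO NCD, 13.7 to 20.1 in WT HFD and 11.3 to 17.7 in KO HFD. Among them, Trac, Trbc2 and Trbc1 had the highest means over the visWAT libraries, at 2.36, 2.16 and 1.84 FPKM. Cd3e, also on that list, never passed 0.328 FPKM. Of 8 T cell genes tested in visWAT, 2 rose in WT (1 without mice 182 and 183) and 3 in KO, and 0 fell.

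**Figure D5:**
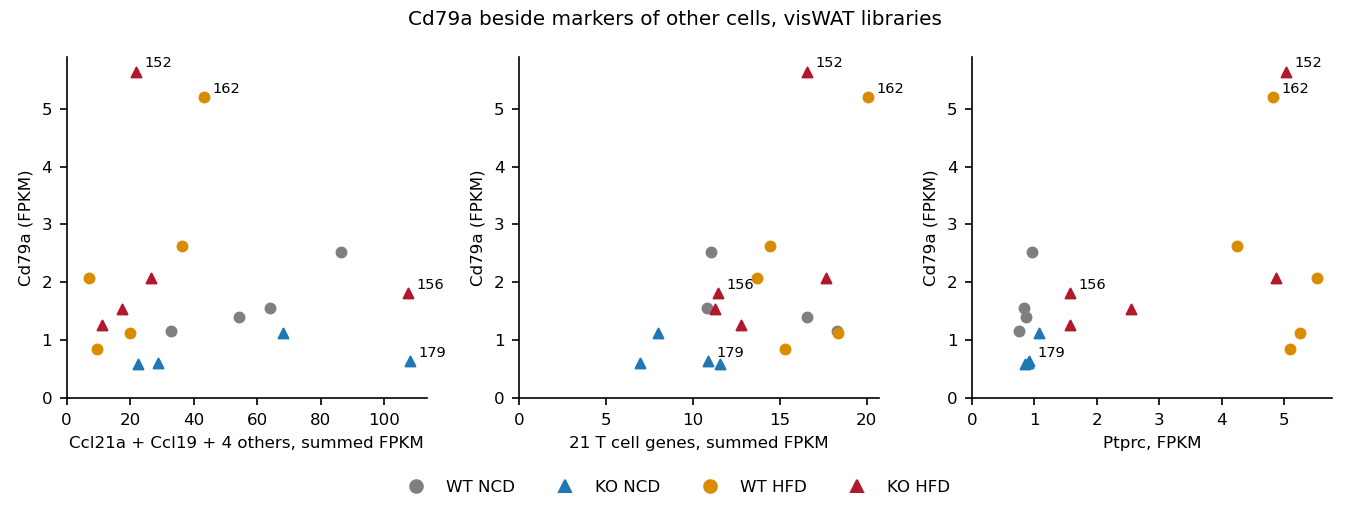
Cd79a in FPKM in each visWAT library against the summed FPKM of 6 lymphoid organ stroma genes, the summed FPKM of 21 T cell genes and the FPKM of Ptprc. Mouse 152 (Cd79a 5.64 FPKM) lies at a stroma sum of 21.9 and mouse 162 (5.20 FPKM) at 43.3, while mice 156 and 179 lie at 108 with Cd79a at 1.81 and 0.648 FPKM.

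KO HFD mouse 152 and WT HFD mouse 162 together shaped several HFD means. In visWAT they had the highest Cd79a, Cd79b and Ms4a1 of all 18 mice. Mouse 152 was also the highest of its group in liver for Ighm and Igkc, at 13.8 and 21.3 FPKM, so its high values were found in both tissues. In KO visWAT, the diet differences of Ighm and Cd79b passed the threshold without it, and so did that of Cd79a, at 0.62.

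Genes most alike in pattern were looked up by Pearson's r of log2(FPKM + 1) over the 18 libraries of a tissue, leaving out immunoglobulin and predicted genes. For Cd79a in visWAT these included Pou2af1 (r = 0.911), H2-Ob (0.901) and Fcrla (0.847), all on the B lineage list, and Cd5l (0.782), which is not. Ighm in visWAT, looked up after its values were seen, was instead most like Sdccag8 (0.910), Ifi27l2a (0.910), Hp (0.909), Plce1 (0.883) and Epn2 (0.880), and none of these is on that list. For Jchain the 5 genes were Cyp21a2-ps (0.758), P3h2 (0.741), Atg16l2 (0.740), Tmem181b-ps (0.718) and Morc3 (0.715) in visWAT. In liver, Jchain was most like Dkk3 (0.883) and Ighm most like Atg16l2 (0.924). The libraries of a tissue differ in diet and genotype, and r includes those differences.

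Whether a mouse high in fat was also high in liver was asked for each member within each diet, over 8 NCD and 10 HFD mice. Of the 16 relations, 0 passed by Pearson's r after Benjamini-Hochberg adjustment. The smallest permutation p was 0.0110, for Pax5 on HFD (r = 0.751, adjusted p = 0.177), with Spearman's rho at 0.879 (permutation p = 0.00173, adjusted p = 0.0277) and r at 0.908 without the 2 mice farthest from the median. Pax5 rested on 1 to 8 reads per liver library. For Igkc on HFD r was 0.630 (permutation p = 0.0425, adjusted p = 0.340), Spearman's rho was 0.418 (adjusted p = 0.719), and r was 0.720 without mice 152 and 162. The remaining relations had adjusted p of 0.433 or more by Pearson's r.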

How the data were processed

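RNA-seq of visWAT and liver from 18 mice gave 36 libraries. The authors extracted RNA with a phenol reagent from fat and with column kits from liver, sequenced poly(A) libraries as paired reads, trimmed them, aligned them with HISAT2 to mm39 and counted them per gene with featureCounts 1.5.0-p3. The strand setting and annotation are not given in the sources used here. The authors deposited FPKM values for 56748 genes, which are relative to gene length and a size factor of each library. These were used for every level. The deposited raw read counts cover the genes of 4 comparison tables and gave the size factor by which reads were recovered from FPKM. Of the recovered reads, 100% came out whole within 0.01. A further 72 deposited per-sample columns (normalised values) and the columns of the authors' own fold changes, p-values and pathway tests were not used.

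Groups came from the sample labels. The main test was limma 3.58.1 with empirical Bayes trend (R 4.3.3) on log2(FPKM + 1), a scale that understates changes of low genes, over those genes whose FPKM averaged 0.5 or more in the libraries compared, with Benjamini-Hochberg adjustment over all genes and a threshold of 0.05. Tissue comparisons held genotype as a covariate. The alternatives were TPM, a pseudocount of 0.1, a filter of 1 or none, edgeR 4.0.16 and DESeq2 1.42.0 on recovered reads, all 4 groups of a tissue in one fit, a block for mouse, and each mouse left out. The fits were tested on simulated data. Exact permutation tests, correlations and Wilson intervals used scipy 1.17.1, and figures matplotlib 3.10.9.

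The libraries of both tissues were paired by mouse number, since a number names 1 animal. After group means were removed, same-mouse libraries correlated at -0.0659 to 0.237 over 11489 genes (median 0.0462), with 3 of 18 mice above 0.1. No 2 libraries of a group agreed within counting noise. The members and gene lists were chosen with earlier results of these data known. The rule for names took all 8 members, the most abundant genes of each list and up to 4 that passed the threshold, the 5 genes most like Cd79a and Jchain, and the leading V segment of a library. Genes of list comparisons beyond these are given as counts, and 1 gene that the rule names is not reported here. The lists covered B lineage, plasma cell, constant region, B cell precursor, germinal centre, lymphoid organ stroma, T cell, macrophage, pan-leukocyte, B cell ligand and antibody receptor genes, with seminal vesicle, adipocyte and hepatocyte genes as checks. V exons were read from the GRCm39 genome.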

Additional observations from a re-analysis of the deposited data

Results flagged for a closer look

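In 7 of the 33 groups of a gene and condition that were examined, 1 mouse lay further from the rest than Dixon's criterion allows. For normally distributed values and separate groups chance gives this in about 1 in 20. Here the criterion was applied to FPKM without logs, and all 7 lay on the high side. The groups also share mice and correlated genes, so 7 of 33 cannot be set against that rate. KO HFD mouse 152 accounted for 5 of the 7. In visWAT it had Cd79a at 5.64 FPKM against 1.26 to 2.07 in the other 4 mice, Igkc at 386 FPKM against 56.4 to 112, and Jchain at 17.7 FPKM against 2.15 to 4.79. In its liver Ighm was at 13.8 FPKM against 2.3 to 3.52, and Igkc at 21.3 FPKM against 4.6 to 7.01. The remaining pair were WT HFD mouse 162, with Cd79b at 5.20 FPKM in visWAT against 1.27 to 2.05, and KO NCD mouse 197, with Cd79a at 1.13 FPKM in visWAT against 0.592 to 0.648.

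The diet difference was larger in visWAT than in liver for 3 members by limma's test of that difference on the log2(FPKM + 1) scale. The excess was 0.75 for Cd79a (adjusted p = 0.0177), 1.78 for Igkc (adjusted p = 0.0320) and 3.27 for Ighm (adjusted p = 4.42e-06). Of all genes tested, 55.5% passed this test, 28.8% in this direction, and without mice 182 and 183 Cd79a (adjusted p = 0.0794) and Igkc (adjusted p = 0.213) did not pass.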

How the results depend on the processing

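Of 877 values recomputed for single genes under the alternatives, 839 kept their direction and their side of the threshold, 28 lost the call, 3 gained it and 7 changed sign. The number of members called for diet in WT visWAT, 1 in the main analysis, was 0 with no filter on low values and 0 to 1 when a mouse was left out. In WT liver it was 1, and 0 with no filter, 3 by DESeq2 (Ighm, Igkc and Jchain) and 0 to 1 when a mouse was left out. For visWAT against liver on NCD it was 5, and 3 with a filter of at least 1 FPKM, which tests fewer genes. For the tissue by diet difference it was 3, and 1 without WT NCD mice 182 and 183. Without these 2 mice the diet difference in WT visWAT was -0.30 for Jchain and -0.12 for Igkc. With a mouse left out, differences that changed sign ran from -0.027 to 0.41 for Cd79a and -0.0054 to 0.36 for Cd79b in WT visWAT, and for Jchain from -0.0039 to 0.87 in KO visWAT and -0.20 to 0.056 in KO liver. Ighm in KO visWAT had an adjusted p of 0.0539 with all 4 groups of visWAT in one fit, and with no filter, which tests more genes, Cd79a there had 0.0709. Igkc missed the threshold for the tissue by diet difference by edgeR (adjusted p = 0.0699) and with no filter (adjusted p = 0.0641). Apart from the filter the cause of these changes was not tested. With mouse as a replicate block the members called stayed at 5, 5 and 3 in the 3 tissue comparisons, and the block changed no call. Ms4a1, Pax5 and Mzb1 were below the main filter, and depth limited the liver V segments.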

Other observations

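The liver of WT NCD mouse 182 was the highest of the 18 livers in Igha, the constant gene of IgA, at 10.1 FPKM, where the others had 0.0235 to 3.49. Its Cd79a and Cd79b, at 0.563 and 0.472 FPKM, lay within the range of the other livers. Its Mlkl level in liver was 4.19 FPKM, where the other WT NCD livers had 2.18 to 2.89, and in visWAT it was the lowest of the WT NCD mice.

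The lncRNA ENSMUSG00000120754, annotated between Ighm and its J segments, reached 97 reads and 4.66 FPKM in visWAT, and the J segments Ighj1 to Ighj4 reached 10 reads at most.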
